A study of Homo sapiens with 4 samples.

Results

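The genes described here encode the machinery that brings proteins into mitochondria and the factors that keep the inner mitochondrial membrane in order. They were the protein-coding genes of the GENCODE annotation of hg19 whose symbols begin with TOMM, TIMM, SAMM50, PAM16, DNLZ, GRPEL, PHB, YME1L1, OMA1, AFG3L2, LONP1, MICOS, IMMT or CHCHD, together with CLPP and CLPX. The rule found 51 genes among 20149 protein-coding genes and used no measured value. The assay was ChIP-seq of H3K27ac, a histone H3 acetylation found at promoters and enhancers in use, and the cells were K562, a line from a human erythroleukaemia with features of early red cells. All cells carried an shRNA: a non-targeting one in the control (shNT), and 1 of 2 hairpins directed at TFAM, which packages the mitochondrial genome and starts its transcription, in the others (TFAM-sh1, called hairpin 1 here, and TFAM-sh2, called hairpin 2). Each condition was 1 library with 1 list of peaks, so the differences below have no replicate check, no p-value is given, and condition and library cannot be told apart. An input library was not analysed here.

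Nearly all mitochondrial proteins are made in the cytosol from nuclear genes and carry signals that the import machinery reads. The TOM complex of the outer membrane is the common entry gate. Proteins with an N-terminal presequence pass on through the TIM23 complex, pulled by a motor around the chaperone mtHSP70, carriers go to the TIM22 complex with the help of small TIM chaperones, and cysteine-rich proteins are trapped by CHCHD4. Inside, prohibitin rings, the MICOS complex and proteases such as YME1L1, OMA1, LONP1 and CLPP shape the cristae and remove damaged proteins. NRF1 and ETS-family factors such as GABPA are known regulators of nuclear genes for mitochondria, which is why matches to their motifs are marked below.

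The 3 lists held 23413 peaks over 52.1 Mb in the control, 23819 over 54.4 Mb in hairpin 1 and 27007 over 61.9 Mb in hairpin 2. Read depth was not given in the sources used here, and the numbers of peaks differ, so the length of sequence that a list covers cannot be separated from depth and peak calling. No listed peak was wider than 8841 bp. Whether the lists were filtered on width is not given in the sources used here, so a start site without a listed peak is not shown to be unmarked. Of 11 genes taken as markers of the erythroid identity of K562, 3 had a peak at the promoter in every list (HBZ, TFRC and LMO2) and 5 had none in any list, among them GATA1, KLF1 and the gamma-globin genes HBG1 and HBG2, which are near-identical copies. Summed covered sequence at the 11 was 24603, 21601 and 25945 bp in control, hairpin 1 and hairpin 2. Of 3 markers each, hepatocyte genes summed to 0, 776 and 0 bp, T cell genes to 1973, 3720 and 5269 bp and B cell genes to 1185, 4276 and 903 bp. The epithelial markers EPCAM, KRT8 and KRT18 had a promoter peak in every list and summed to 8608, 13662 and 11180 bp. The part of these markers in the results below was not tested. TFAM itself kept a promoter peak in every list, which does not measure the knockdown.

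The following promoter runs are shown because their genes carry the results that follow or stand for the motifs found across the group. Each is the reference sequence of GRCh37 (hg19) before the start site of the canonical transcript, read 5′ to 3′ along the gene and limited to bases that no annotated exon covers, and capitals mark matches to the NRF1 motif (GCGCA, any base, then GCGC) or to the ETS motif (CCGGAAG) on either strand. TOMM20, the presequence receptor, lies on the minus strand (chr1:235292153-235292402) and TOMM20L, its relative that gained a peak, on the plus strand (chr14:58862398-58862645). TOMM7, a small TOM subunit with the most covered sequence of the outer membrane genes (chr7:22862469-22862572, minus), PAM16, a regulator of the import motor whose peak was longest in hairpin 2 (chr16:4401323-4401572, minus), and CLPX, the unfoldase partner of the CLPP protease (chr15:65477681-65477930, minus), each hold an NRF1 match.
TOMM20: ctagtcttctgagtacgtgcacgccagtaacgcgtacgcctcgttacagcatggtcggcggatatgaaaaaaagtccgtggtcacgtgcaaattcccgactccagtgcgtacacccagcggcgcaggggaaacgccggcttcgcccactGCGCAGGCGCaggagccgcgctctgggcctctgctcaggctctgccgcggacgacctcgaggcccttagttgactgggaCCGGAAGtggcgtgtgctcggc
TOMM20L: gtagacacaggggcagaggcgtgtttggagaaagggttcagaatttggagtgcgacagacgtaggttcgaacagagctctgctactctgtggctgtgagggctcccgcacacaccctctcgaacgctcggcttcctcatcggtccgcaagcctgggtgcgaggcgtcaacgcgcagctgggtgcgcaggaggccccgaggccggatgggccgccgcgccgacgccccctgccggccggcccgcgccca
TOMM7: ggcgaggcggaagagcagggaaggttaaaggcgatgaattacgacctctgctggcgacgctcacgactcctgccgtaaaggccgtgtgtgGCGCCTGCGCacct
PAM16: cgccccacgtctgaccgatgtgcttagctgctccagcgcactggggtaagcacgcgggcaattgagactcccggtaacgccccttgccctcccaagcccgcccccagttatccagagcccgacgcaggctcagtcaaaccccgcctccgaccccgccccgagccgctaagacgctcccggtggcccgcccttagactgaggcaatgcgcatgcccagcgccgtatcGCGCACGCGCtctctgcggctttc
CLPX: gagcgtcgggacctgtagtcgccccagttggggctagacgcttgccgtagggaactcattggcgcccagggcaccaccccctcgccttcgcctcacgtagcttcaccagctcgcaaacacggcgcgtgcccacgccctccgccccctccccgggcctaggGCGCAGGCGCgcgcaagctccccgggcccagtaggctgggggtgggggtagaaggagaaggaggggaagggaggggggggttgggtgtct

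CHCHD4, the oxidoreductase of the intermembrane space (chr3:14166371-14166514, minus), and TIMM29, a subunit of the TIM22 complex (chr19:11039358-11039486, plus), share their promoters with divergent neighbours. TIMM23, the channel of the presequence translocase (chr10:51623351-51623416, minus), and its copy TIMM23B (chr10:51371339-51371389, plus) are shown together because reads that fit both were not kept.
CHCHD4: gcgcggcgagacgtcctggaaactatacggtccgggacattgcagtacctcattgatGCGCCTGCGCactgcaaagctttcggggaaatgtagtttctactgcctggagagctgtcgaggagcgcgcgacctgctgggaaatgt
TIMM29: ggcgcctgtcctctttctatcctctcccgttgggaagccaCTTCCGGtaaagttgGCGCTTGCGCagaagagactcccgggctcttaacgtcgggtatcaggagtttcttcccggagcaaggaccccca
TIMM23: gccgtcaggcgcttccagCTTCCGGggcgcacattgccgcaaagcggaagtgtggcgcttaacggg
TIMM23B: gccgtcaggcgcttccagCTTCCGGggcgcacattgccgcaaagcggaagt
All 51 bases shown for TIMM23B were the same as the first 51 shown for TIMM23, which runs on for 15 more. Values at this pair are therefore uncertain. The TOMM20L run held neither motif, while that of its relative TOMM20 held one match of each.

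The promoters of the group were marked in nearly every case. A promoter was taken as the 1 kb before and the 1 kb after the start site, and 49 of the 51 genes had a peak there in every list, against 50.3% of all protein-coding genes. The remaining ones were TOMM20L, with a peak in both hairpin lists and none in the control, and IMMT, with a peak in the control and hairpin 2 and none in hairpin 1. Across all genes 1.52% gained a promoter peak in both hairpins and 1.34% lacked one in hairpin 1 alone, so 1 gene of each kind among 51 is close to those shares. No gene of the group lost its promoter peak in both hairpins, which 0.829% of all genes did. Wherever a promoter of the group had a peak it was a single one, and it contained the start site. Most of the 10144 genes with a promoter peak in every list were alike in this. Only 0.87%, 0.61% and 1.4% of them had several promoter peaks in control, hairpin 1 and hairpin 2. Their start site lay in a peak in 9863, 9963 and 9940 genes. The promoter peaks ranked high by the authors' score, with a median percentile of 85.2 in the control list, 85.3 in hairpin 1 and 87.9 in hairpin 2. For the 10144 genes with a promoter peak in every list these medians were 78.1, 79.3 and 81.7. In the control 19 of 50 such peaks stood in the top 10% of the list, or 38%, against 24.1% for those 10144 genes.

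The sequence covered by peaks within 5 kb on each side of the start site was then summed for each gene. Its median over the 51 genes in the control was 2705 bp (quartiles 2203 and 3504), 2939 bp in hairpin 1 (2247 and 3526) and 3047 bp in hairpin 2 (2472 and 3692). The 10144 genes marked in every list had medians of 2609, 2707 and 2875 bp. As a log2 ratio to the control, the median was 0.07 in hairpin 1 over 49 genes and 0.03 in hairpin 2 over 50 genes with covered sequence in both lists. The same medians over the 10144 genes were 0.04 and 0.11. In hairpin 2 the ratio was above 0 in 29 of 50 genes of the group, or 58.0%, against 66.3% of the 10144, and in hairpin 1 in 32 of 49, or 65.3%, against 56.03%. The group was also narrow in spread: 38 of 49 ratios in hairpin 1 and 34 of 50 in hairpin 2 lay within 0.25 of 0 on the log2 scale, or 77.6% and 68.0%, where the 10144 genes had 57.7% and 57.3%. The mitochondrial ribosomal protein genes had 70.1% and 61.0%, and 45 other genes of the pathway, described further on, 62.8% and 72.1%, the last of these above the share in the group. Both comparisons share the control library.

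**Figure D1:**
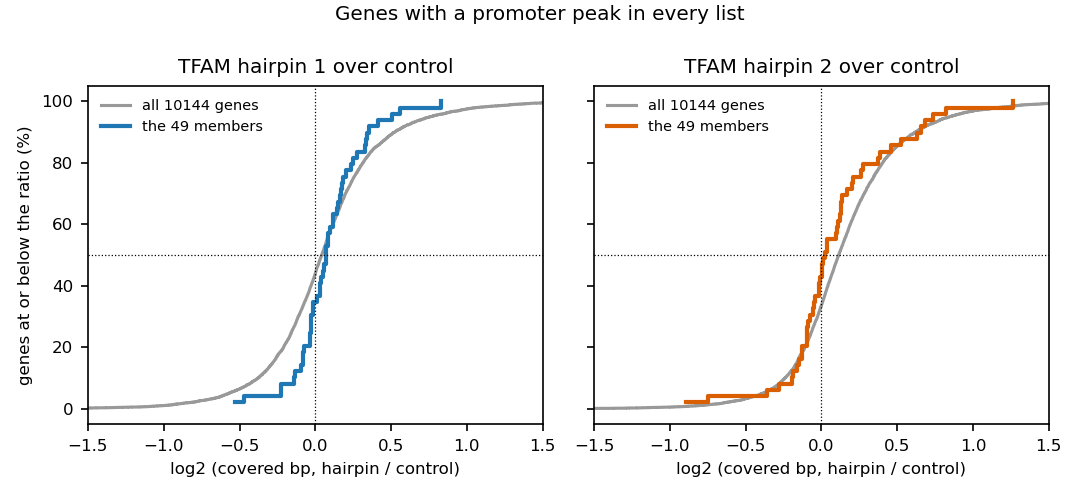
Cumulative share of genes (percent) by the log2 ratio of covered bp in hairpin 1 (left) or hairpin 2 (right) over the control, for the 49 genes of the group and all 10144 genes with a promoter peak in every list. The curve of the group is steeper around 0 in hairpin 1, and in hairpin 2 it crosses 50% near 0.03 where all genes cross at 0.11.

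A gene was called higher or lower when its covered length differed from the control at least 1.5-fold, and all 51 genes had 500 bp or more in at least 1 list, TOMM20L through the hairpins alone. In hairpin 1, 2 genes were called higher and 1 lower, while 13.9% and 8.46% of the 12641 genes so counted were called. In hairpin 2, 7 were higher and 2 lower, against 16.7% and 6.3%. Only TOMM20L was called higher in both hairpins (6.99% of the 12641 genes) and no gene was called lower in both (2.63%). Each of these shares was lower in the group than among the 12641 genes. Over genes marked in every list this was not so in hairpin 2, where 6 of 49 members (12.2%) were higher and 2 (4.08%) lower, against 11.1% and 2.4% of the 10144. In hairpin 1, 1 of the 49 was higher and 0 lower, against 8.19% and 4.75%, and 0 were called in either direction in both hairpins, against 4.27% and 0.749%. None of these differences was tested.

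**Figure D2:**
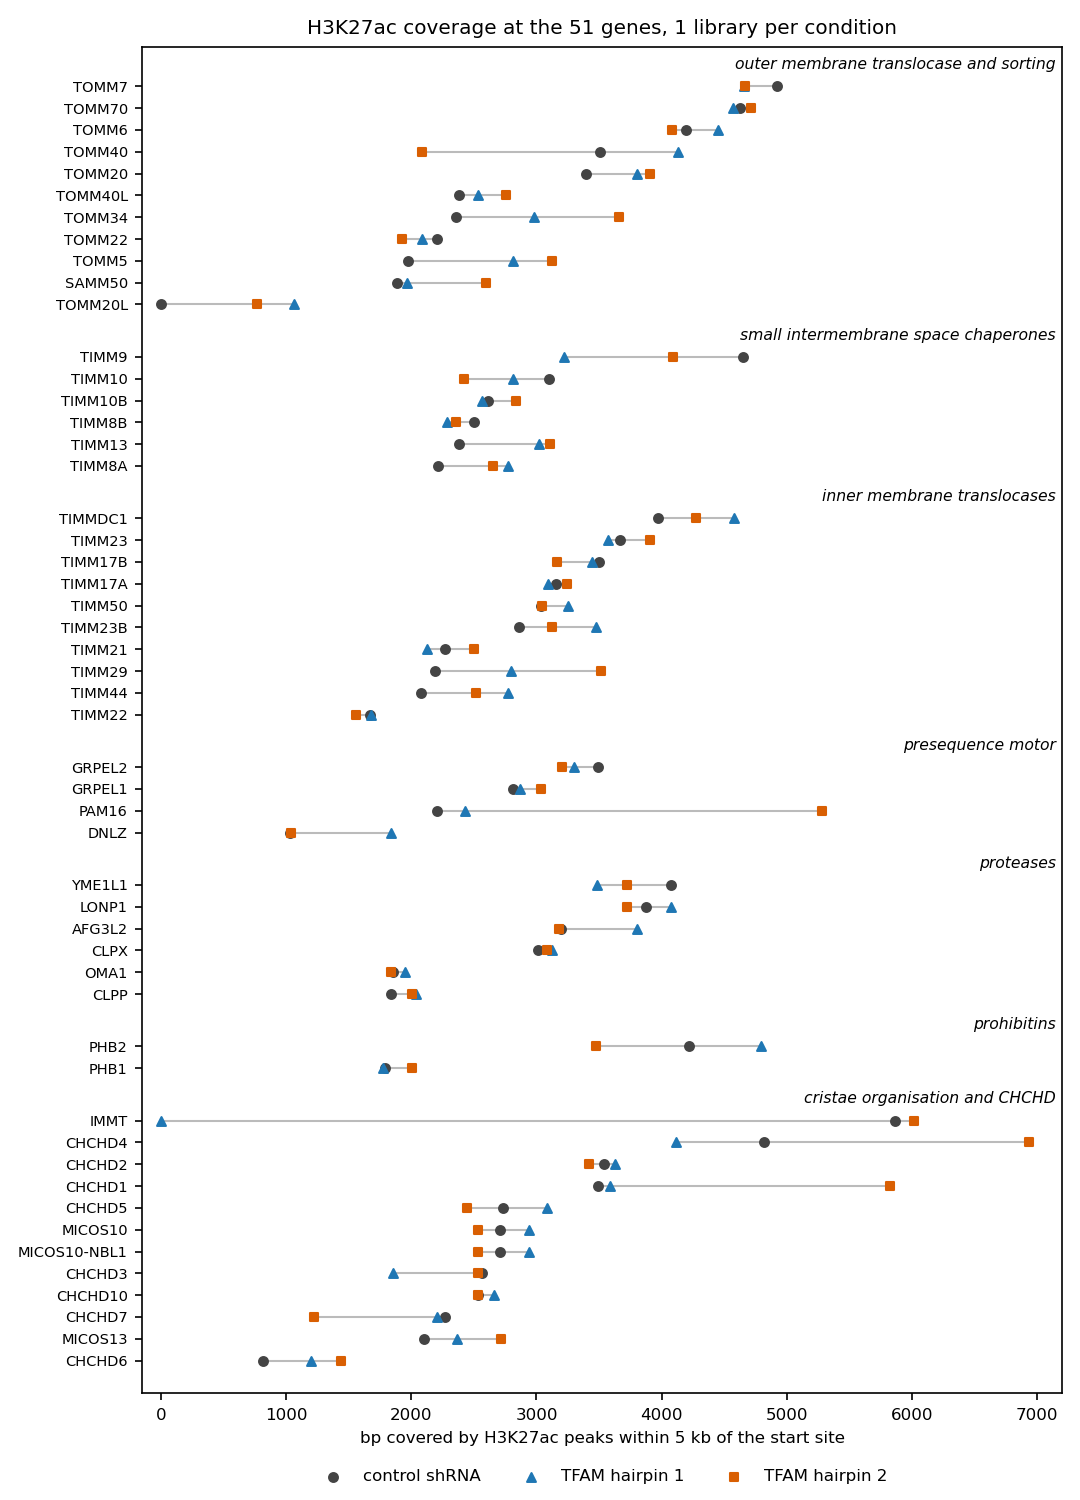
Covered bp within 5 kb of the start site (x axis) for each of the 51 genes, grouped by role, with 1 point per library. Most genes hold the 3 points close together, while IMMT stands at 0 bp in hairpin 1, TOMM20L stands at 0 bp in the control, and PAM16, CHCHD1 and CHCHD4 stand apart in hairpin 2.

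At the outer membrane, TOMM7 and TOMM70 had the most covered sequence. TOMM7, which helps assemble the TOM complex, had 4919 covered bp in control cells and 4662 and 4666 bp with hairpins 1 and 2; values below follow this order. TOMM70, the receptor for carrier proteins, had 4626, 4574 and 4711 bp. Both differed by less than 300 bp between any lists. The pore protein gene TOMM40 had 3504, 4128 and 2088 bp, so it was lowest in hairpin 2. Its hairpin 2 peak (chr19:45394344-45396431) began 167 bp before the start site, where the control peak reached 1815 bp upstream, and both ran to a like distance into the gene. TOMM20 had 3395, 3802 and 3909 bp and the receptor gene TOMM22 had 2204, 2084 and 1928 bp. TOMM6, a further small subunit, and the TOMM40 relative TOMM40L had 4199, 4448 and 4085 bp and 2384, 2529 and 2756 bp.

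TOMM5, another small TOM subunit, was higher in both hairpins, with 1976, 2810 and 3122 bp, but passed the 1.5-fold limit only in hairpin 2 (log2 ratios 0.51 and 0.66). The added length lay inside the gene, since covered sequence downstream of the start site was 1262, 2248 and 2271 bp. The cytosolic cochaperone gene TOMM34 followed the same order with 2359, 2979 and 3658 bp. Its promoter peak alone was 2337, 2373 and 3324 bp wide, and the rest belonged to a separate upstream peak. That peak contains the start site of STK4, 6115 bp from that of TOMM34, in every list. Its length therefore cannot be assigned to TOMM34 alone. With windows of 2.5 kb the TOMM34 log2 ratios were 0.02 and 0.51, the latter under the 1.5-fold limit. SAMM50, which inserts barrel proteins into the outer membrane, had 1888, 1966 and 2593 bp. TOMM20L had nothing covered in the control (0 bp), 1061 bp in hairpin 1 (chr14:58862208-58863268) and 766 bp in hairpin 2 (chr14:58862518-58863283), with the nearest control peak 29893 bp from its start site. The score percentiles of these peaks were 37.3 and 13.4. Of hairpin 1 peaks at percentiles 20 to 40, 37.6% had no control counterpart, and of hairpin 2 peaks at percentiles 0 to 20, 68.3% had none, so a peak of this rank without a counterpart is common in these lists.

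The 6 small chaperones of the intermembrane space, which ferry hydrophobic precursors between the membranes, were all marked in every list, and none passed 1.5-fold. TIMM9 had the most covered sequence, with 4654, 3220 and 4095 bp, and was lower than the control in both hairpins (log2 ratios -0.53 and -0.18). The rank of its peak was higher in both hairpins, at percentiles 78.35, 83.45 and 81.12. TIMM9 shares its promoter with KIAA0586, whose start site lies 188 bp upstream on the other strand. The covered part on that side was 2945, 1426 and 2498 bp. TIMM10, the partner of TIMM9, had 3102, 2813 and 2419 bp. TIMM8A and TIMM13, which form the other small chaperone complex, lay higher in both hairpins, with 2211, 2774 and 2654 bp for TIMM8A and 2379, 3021 and 3111 bp for TIMM13. The TIMM13 peak ranked at percentiles 99.7, 98.4 and 98.99 of its lists. TIMM8B and TIMM10B had 2504, 2286 and 2356 bp and 2614, 2568 and 2840 bp.

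Among the 10 genes of the inner membrane translocases, TIMMDC1, an assembly factor of complex I named for its TIM-like domain, had the most covered sequence with 3974, 4580 and 4275 bp. TIMM23 had 3664, 3573 and 3911 bp and TIMM23B 2864, 3472 and 3127 bp, with the limit given above. TIMM17A and TIMM17B, the alternative partners of TIMM23, had 3160, 3095 and 3241 bp and 3503, 3443 and 3162 bp. The presequence receptor gene TIMM50 had 3036, 3254 and 3047 bp. These genes of the presequence channel stayed within 0.28 of 0 on the log2 scale in both hairpins. TIMM44, which ties the motor to the channel, had 2081, 2770 and 2514 bp (log2 ratios 0.41 and 0.27). TIMM29 was the 1 gene of the class past the limit, with 2189, 2793 and 3517 bp and a log2 ratio of 0.68 in hairpin 2. Its divergent neighbour YIPF2 begins 172 bp away and had the same covered lengths, so the change cannot be given to either gene. The carrier channel gene TIMM22 had the least of the class, at 1666, 1679 and 1557 bp, and TIMM21 had 2269, 2127 and 2498 bp.

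The presequence motor held the largest single ratio of the group. PAM16, which restrains the J-protein of the motor, had 2202, 2431 and 5282 bp, a log2 ratio of 1.26 in hairpin 2. The hairpin 2 peak (chr16:4396813-4402094) reached 4509 bp into the gene, against 1337 bp for the control peak and 1984 bp for hairpin 1, and ranked at percentile 63.4 of its list where the others stood at 91.7 and 91.6. With the annotated 5′ end of the gene in place of the canonical start, the ratios were -0.44 in hairpin 1 and -0.09 in hairpin 2. No list had a promoter peak at that end. The window around it starts within each of the peaks and leaves out their part further into the gene. With coverage counted within 2.5 kb of the canonical start the hairpin 2 ratio was 0.57, under the 1.5-fold limit. DNLZ, a cochaperone that keeps mtHSP70 soluble, had 1034, 1835 and 1041 bp and was called higher in hairpin 1 alone. The nucleotide exchange factors GRPEL1 and GRPEL2 stayed within 0.13 of 0 on the log2 scale, with 2809, 2870 and 3037 bp for GRPEL1 and 3491, 3298 and 3201 bp for GRPEL2.

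**Figure D3:**
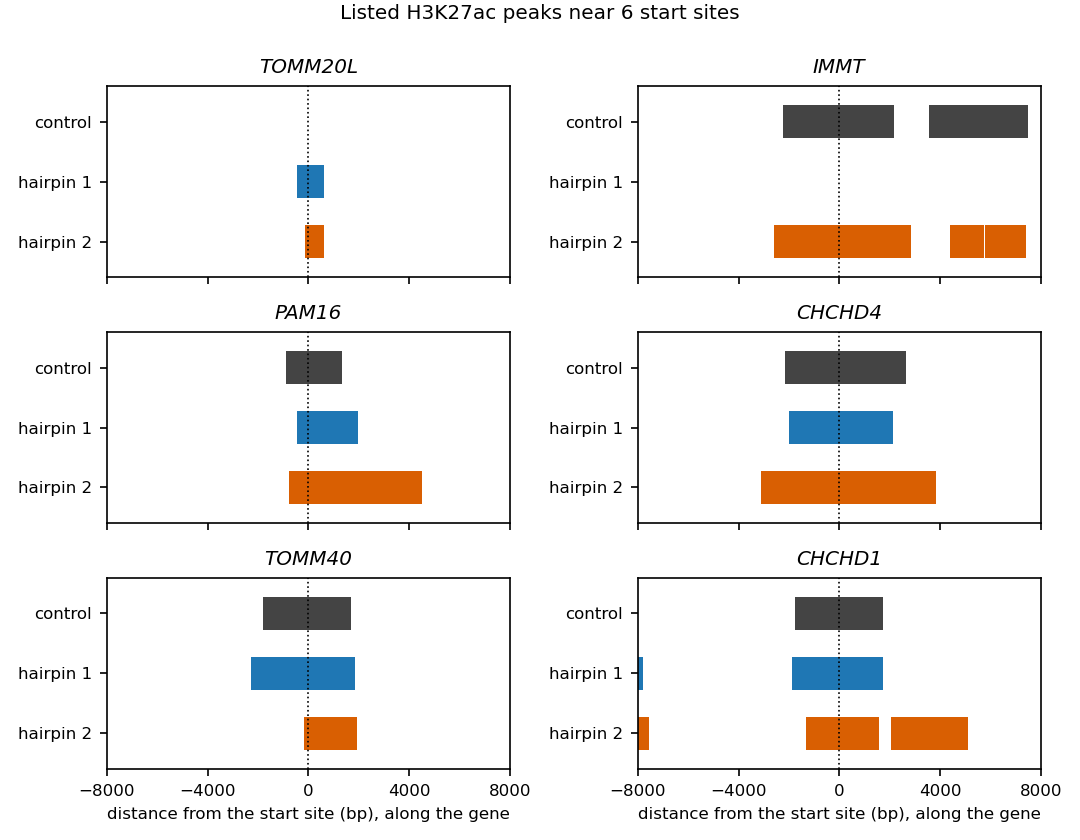
Peaks of each list (bars) around the start sites of TOMM20L, IMMT, PAM16, CHCHD4, TOMM40 and CHCHD1, by distance in bp along the gene, with upstream on the left of 0. The hairpin 2 peak of PAM16 extends 4509 bp into the gene, the hairpin 2 peak of TOMM40 begins 167 bp upstream, and no hairpin 1 peak is listed at IMMT.

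No protease gene was called in either hairpin. YME1L1, the protease facing the intermembrane space that cleaves OPA1, had 4075, 3480 and 3725 bp, and OMA1, the stress-activated protease with the same substrate, had 1856, 1952 and 1834 bp. LONP1, which degrades oxidised matrix proteins and TFAM, had 3879, 4079 and 3727 bp. AFG3L2, a subunit of the matrix-facing protease, had 3199, 3802 and 3184 bp. All 6 ratios of each hairpin lay within 0.25 of 0, and the extremes over both hairpins were -0.23 for YME1L1 and 0.25 for AFG3L2. The unfoldase gene CLPX had 3012, 3123 and 3088 bp and its protease CLPP 1835, 2036 and 2008 bp, so both genes of the CLP pair differed from the control by no more than 0.15 on the log2 scale. The OPA1 gene itself, from the list of other pathway genes, had 2549, 1434 and 2642 bp and was called lower in hairpin 1 alone.

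The prohibitin genes differed in level more than in ratio. PHB2 had 4216, 4796 and 3479 bp and PHB1 had 1788, 1771 and 2008 bp, with log2 ratios from -0.28 to 0.19. In hairpin 1 the PHB2 promoter peak was 4428 bp wide. The rest of the length belonged to a separate peak that began 4633 bp downstream of the start site. The PHB2 window also covers the promoter of EMG1, a divergent neighbour 249 bp away. PHB1 has no other protein-coding start site within 5 kb.

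The cristae and CHCHD genes held both the most covered gene of the control and the least covered of those marked in every list. IMMT, the core MICOS subunit that shapes crista junctions, had 5863, 0 and 6017 bp, so nothing was listed in hairpin 1. Its promoter peak (chr2:86420398-86424811 in the control) spanned 4414 bp there and 5415 bp in hairpin 2. In the control it ran from 2226 bp upstream of the start site across the first exon to 2187 bp into the gene. The rest of the covered sequence was part of a separate intronic peak (chr2:86415070-86419033 in the control and chr2:86416840-86418186 in hairpin 2). By promoter peak alone TOMM7, at 4919 bp, was wider than IMMT in the control. The nearest hairpin 1 peak lay 21166 bp away. The promoter peaks of IMMT were wide but low in rank, at percentiles 28.6 of the control list and 8.16 of hairpin 2. Of control peaks at percentiles 20 to 40, 34.0% had no hairpin 1 counterpart. The start site of MRPL35, a ribosomal protein gene 3995 bp away, had no promoter peak in any list. The absence of a listed peak at IMMT therefore does not show that its promoter was unmarked in hairpin 1.

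No list lacked a promoter peak at the other MICOS genes. MICOS10, whose start site lies 88 bp from that of the readthrough gene MICOS10-NBL1, so that both have the same values, had 2705, 2939 and 2533 bp at percentiles 98.6, 97.05 and 99.8. MICOS13 had 2099, 2364 and 2715 bp. The MICOS subunit genes CHCHD3 and CHCHD6 differed: CHCHD3 had 2562, 1851 and 2532 bp, and CHCHD6 had 814, 1200 and 1439 bp (log2 ratios 0.56 and 0.82), the latter called higher in hairpin 2. CHCHD6 was the least covered one in the control. The CHCHD3 peak stood at percentiles 89.5, 93.7 and 84.7, so it ranked highest in hairpin 1, where it was shortest.

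CHCHD4, whose relay oxidises incoming cysteine-rich proteins, had 4816, 4114 and 6940 bp, so it was lowest in hairpin 1 and highest in hairpin 2. Its hairpin 2 peak (chr3:14162525-14169464) extended on both sides and stood at percentile 55.5, below the 74.7 of the control and 90.8 of hairpin 1. The divergent neighbour TMEM43 begins 182 bp away and had the same covered lengths, so the change cannot be given to either gene. The hairpin 2 log2 ratio of CHCHD4 was 0.53, and 0.10 with windows of 2.5 kb. CHCHD1, a subunit of the mitochondrial ribosome, had 3495, 3589 and 5827 bp, and the addition in hairpin 2 was a separate peak from 2071 to 5123 bp downstream of the start site. That peak also contains the start site of the next gene, ZSWIM8, 3558 bp from that of CHCHD1, so the added length cannot be assigned to CHCHD1 alone. CHCHD7, whose divergent neighbour PLAG1 begins 516 bp away, had 2266, 2208 and 1219 bp. The part upstream of the start site was 1444, 1056 and 163 bp. The CHCHD7 peak was shortest in hairpin 2 but ranked highest there, at percentiles 56.2, 64.4 and 81.7. CHCHD2 and CHCHD10, paralogous proteins linked to stress signalling and cristae, had 3543, 3624 and 3421 bp and 2533, 2663 and 2535 bp. Both stayed within 0.07 of 0 on the log2 scale, and CHCHD5 had 2729, 3084 and 2446 bp.

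The covered sequence lay more often downstream of the start sites than upstream of them. In short genes the downstream part can run past the gene's end, as in CHCHD1, 1606 bp long with 1742 bp downstream in the control. Among the 49 genes with a promoter peak in every list, the median was 1139 bp upstream and 1452 bp downstream of the start site in the control, 1238 and 1645 bp in hairpin 1, and 1128 and 1596 bp in hairpin 2. More than 50% of the covered sequence was downstream in 32 of 49 genes in the control, 35 in hairpin 1 and 41 in hairpin 2, or 65.3%, 71.4% and 83.7%. For the 10144 genes these shares were 62.7%, 63.7% and 68.5%. Of these 49, the genes with the most downstream sequence in the control were TOMM7 (3805 bp), LONP1 (2789 bp) and CHCHD4 (2647 bp). TOMM70 was the reverse, with 3173 bp upstream in the control, toward its divergent neighbour LNP1, and 1452 bp downstream. AFG3L2 had 1254 bp upstream in the control and 1338 bp in hairpin 1 but 274 bp in hairpin 2, while its downstream part was 1944, 2463 and 2909 bp.

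**Figure D4:**
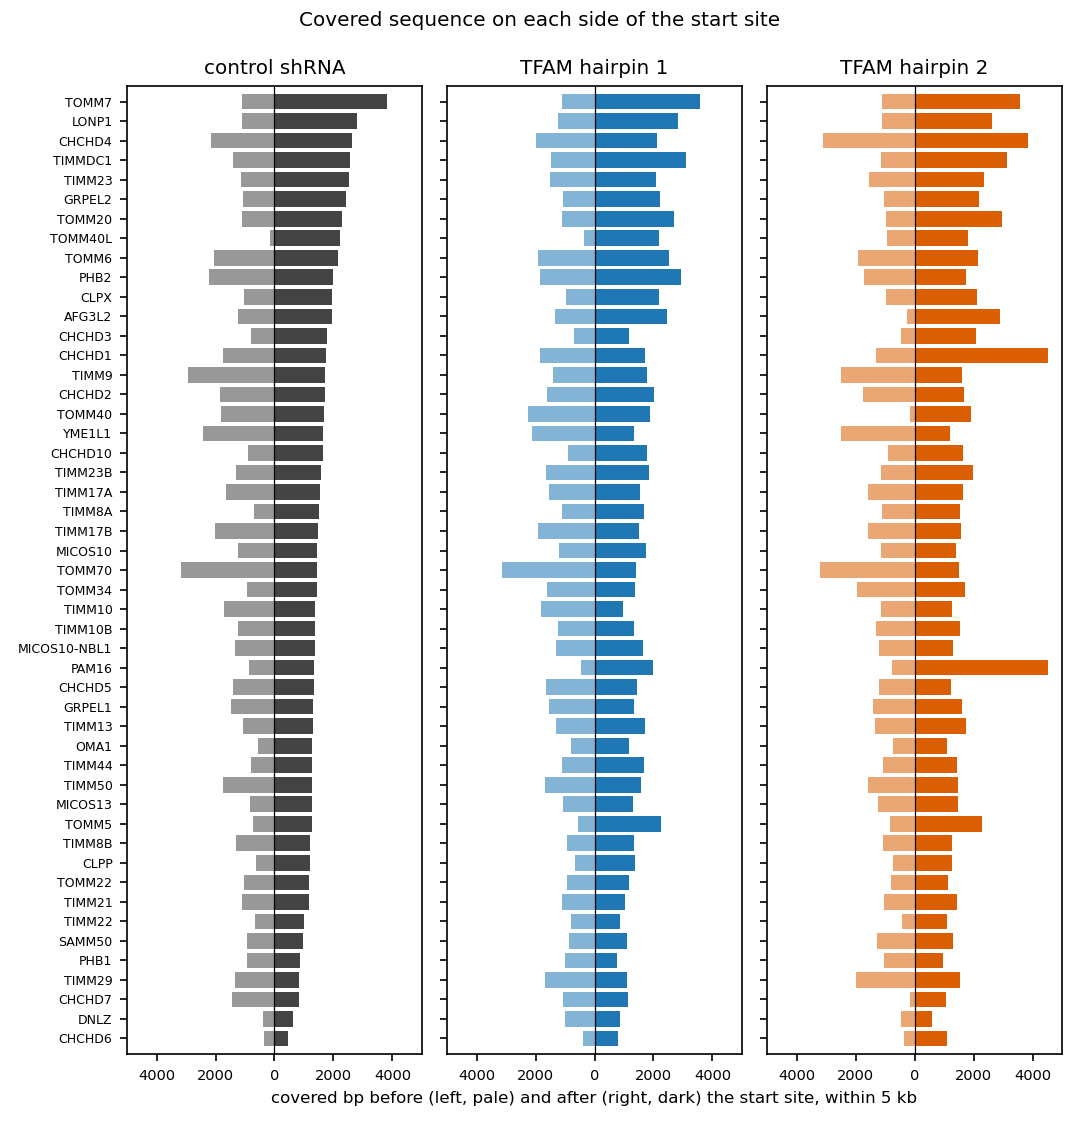
Covered bp upstream (pale bars, left) and downstream (dark bars, right) of the start site for the 49 genes with a promoter peak in every list, ordered by the downstream length in the control, with 1 panel per library. The downstream bars are longer than the upstream bars in 32, 35 and 41 genes from left to right.

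Some gene bodies also held peaks deeper in, beyond 5 kb from the start site, and their number was not set beside that of all genes. TIMM23, with the limit given above, held 1 in every list, with 3940, 3458 and 3995 bp inside the gene. LONP1 also held 1 in every list, with 419, 863 and 1923 bp inside the gene. Both ran past the gene's end. In SAMM50, 2 intronic peaks of the control and 3 peaks of each hairpin covered 2301, 5097 and 7623 bp. A peak centred 49094 bp from the SAMM50 start site in hairpin 1 (chr22:44399611-44401221 in hairpin 1 and chr22:44399690-44401118 in hairpin 2) had no control counterpart. It stood at percentiles 49.5 of hairpin 1 and 33.1 of hairpin 2. Of hairpin 1 peaks at percentiles 40 to 60, 12.7% had no control counterpart, and of hairpin 2 peaks at percentiles 20 to 40, 45.3% had none. AFG3L2 held 1 internal peak per list over 3694, 1800 and 5259 bp, and TIMMDC1 1 intronic peak over 3186, 1804 and 1560 bp. CHCHD6 had 1 intronic peak of 5362 bp in the control (chr3:126626349-126631710), a shorter one within it in hairpin 2, and none there in hairpin 1. Hairpin 1 listed 4 other intronic peaks over 4436 bp, at percentiles 6.17 to 29.2. Of these, 1 (chr3:126553722-126554610) overlapped a second hairpin 2 peak (chr3:126554204-126554724). The 2 peaks of hairpin 2 covered 2884 bp. CHCHD3, with 292219 bp of gene beyond that distance, had no such peak in the control or hairpin 1 and 1 of 839 bp in hairpin 2.

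Several features that the rule did not use were shared. Of the 51 genes, 14 had a divergent protein-coding start site within 1 kb, or 27.5%, against 17.7% of genes marked in every list and 9.94% of all genes. Some partners are mitochondrial themselves, as SDHD, a subunit of complex II, which begins 117 bp from TIMM8B. At the 14 genes a single peak contained both start sites in every list, except at CHCHD7 in hairpin 2. There the peak reached 163 bp upstream, short of the PLAG1 start site 516 bp away. The median log2 ratios of the 14 were -0.03 in hairpin 1 and -0.01 in hairpin 2, against 0.09 and 0.04 in the other 37. In the 300 bases from 250 before the start site, the median G+C content was 64.7% (51.7 to 77.3) in the group and 66.7% in the genes marked in every list. An ETS match (CCGGAAG) was found in 24 of 51 genes, or 47.1%, with more than 1 match in 11. It was found in 23.1% of genes marked in every list and 14% of all genes. MICOS10 and MICOS10-NBL1 share the same ETS match, and TIMM23 and TIMM23B are copies. The 24 genes therefore include repeats, and so do the 11 through TIMM23 and TIMM23B. An NRF1 match (GCGCA, any base, then GCGC) was found in 12 genes, or 23.5%, against 14.1% and 8.34%, and CHCHD4 and TIMM29 had more than 1.

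The other motifs were searched on both strands in the same way. SP1 (GGGCGG) was found in 62.7% of the group, 77% of genes marked in every list and 60.9% of all genes. NFY (CCAAT) was found in 41.2%, 36.7% and 35.9%. YY1 (AAGATGG followed by CGGC) was found in 2 genes of the group, or 3.92%, against 2.68% and 1.42%. CRE (TGACGTCA) was found in 0 genes of the group, against 3.79% and 2.68%. Matches of different motifs overlapped in 4 of the genes' promoters. TOMM20L, CHCHD1 and MICOS13 held none of the 6 motifs in this window. The 12 genes with an NRF1 match had median log2 ratios of 0.07 in hairpin 1 and 0.04 in hairpin 2, and the 39 without one had 0.07 and 0.02. The 24 with an ETS match, which include the repeats named above, had 0.12 and -0.01. The 27 without had 0.06 and 0.07. A match describes the letters of the window and shows no binding.

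**Figure D5:**
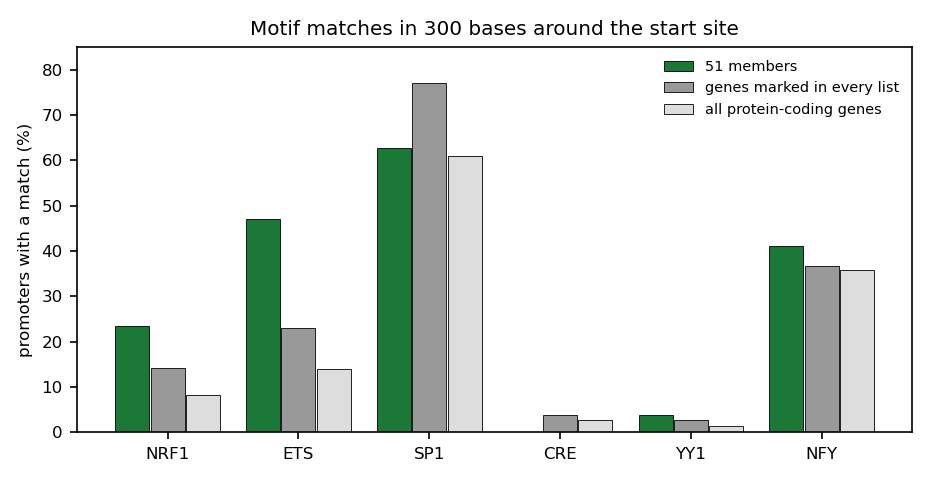
Share of promoters (percent, from 250 bases before the start site to 50 from it on) with at least 1 match to each motif, in the 51 genes, the 10144 genes marked in every list and all 20149 genes. ETS matches stand at 47.1% in the group against 23.1% and 14%, and SP1 matches at 62.7% against 77% and 60.9%.

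Other genes of the pathway, 45 in a list that the symbol rule does not reach, gave a like picture. Of these 42 had a promoter peak in every list, MTX3 and DNAJC15 had none in any list, and TMEM70, an assembly factor of ATP synthase, lacked one in hairpin 1 alone. The median log2 ratio was 0.05 in hairpin 1 and 0.08 in hairpin 2 over 43 genes. Called higher were MIPEP, a presequence-trimming peptidase, in hairpin 1 (783, 1358 and 974 bp), and in hairpin 2 STOML2, a prohibitin relative (2322, 3150 and 4370 bp), and XPNPEP3 (3689, 3404 and 5902 bp). Only OPA1 and TMEM70 were called lower, both in hairpin 1. The mtHSP70 gene HSPA9, centre of the import motor, had 3814, 3287 and 3468 bp, and HSPD1 and HSPE1, which encode the matrix chaperonin and share 1 divergent promoter, had 4486, 4883 and 4842 bp.

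The mitochondrial ribosomal protein genes, 78 by symbol, were examined as a second class of nuclear genes for mitochondria. Of these 76 were marked in every list, with medians of 2586, 2643 and 2769 bp and median log2 ratios of 0.03 in hairpin 1 and 0.06 in hairpin 2. They shared the frequency of ETS matches, at 41%, but had NRF1 matches in 11.5% and YY1 matches in 12.8% of genes, where the import and quality-control genes had 23.5% and 3.92%. These differences were not tested.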

How the data were processed

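Peak lists of 3 H3K27ac libraries of K562 cells were used, 1 per condition, grouped by sample title. Per the labels' protocols, reads that fitted 1 place in hg19 were kept, and the submitters' processing notes list Bowtie 0.12.7 and Picard but not what each was used for. Peak names carry a MACS prefix. How the caller was set, and whether it used the input, is not given in the sources used here. Per peak the authors deposited a score, 50 or more in each list, which served here to rank a list's own peaks as percentiles. All peaks lay inside the chromosome lengths of GRCh37, and positions are 1-based in hg19.

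The annotation was GENCODE release 44 lifted to GRCh37, with 1 entry per symbol. Start sites were those of canonical transcripts, or the gene's 5′ end where none is marked. Peaks were joined and covered bp summed within 5 kb of it, and an overlap of 1 bp within 1 kb counted as a promoter peak. Ratios were taken where both lists had covered sequence, and a gene was called past 1.5-fold if any list had 500 bp. Counts and medians stand beside those of all genes, with no test. The code was checked on simulated data with peaks widened or removed at known genes. Python 3.11.15, numpy 2.4.6, pandas 2.3.3 and matplotlib 3.10.9 were used.

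All members could be named. Values in every list were given for those with a promoter peak in some lists only, those called in both hairpins, the 3 highest and 3 lowest mean differences and the 2 most covered of each role, and further members were chosen after their values were seen. The members, lists and comparisons were chosen with earlier results of these data known. A further erythroid marker is not reported here. Alternatives were lists of equal length, the 50% of peaks with the higher scores in each list, promoters of 2.5 kb, windows of 2.5 and 10 kb, gene 5′ ends, call limits of 25% more sequence and of 2-fold, and, added after seeing the data, the group without MICOS10-NBL1, TIMM23 and TIMM23B.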

Additional observations from a re-analysis of the deposited data

How the results depend on the processing

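The count of 49 genes with a promoter peak in every list was 48 or 49 over the alternatives on all 51 genes and 46 of 48 without MICOS10-NBL1, TIMM23 and TIMM23B, with the same 2 exceptions, and the median log2 ratio stayed between 0.05 and 0.07 in hairpin 1 and between 0.01 and 0.03 in hairpin 2. In the higher-scoring 50% of each list, 0 genes gained a promoter peak in both hairpins, against 2.81% of all genes. In that setting 0 were called higher in both, against 7.84% of all genes so counted. The peaks of TOMM20L are left out there by construction. With equal list lengths, 1 gene, IMMT, counted as lost in both hairpins and as 1 called lower in both, because its low-ranked hairpin 2 peak is then not in the list. The shares over all genes in that setting were 0.928% lost and 2.95% of those counted called lower. With windows of 10 kb, 2 genes were called higher in both hairpins (TOMM20L and DNLZ), against 8.05% of all genes so counted, and with a limit of 25% more sequence 6 were (TOMM20L, TIMM13, TIMM29, TOMM34, CHCHD6 and TOMM5), against 13.5%. The ratio of PAM16 in hairpin 2 turned to -0.09 with the gene's annotated 5′ end. The window around that end starts within each PAM16 peak and leaves out the part further into the gene. With windows of 2.5 kb the PAM16 ratio in hairpin 2 was 0.57, no longer past 1.5-fold. The CHCHD1 ratio in hairpin 2 turned to -0.07 with windows of 2.5 kb, which leave out most of its second peak. No paired analysis was possible because each condition has 1 library and no result comes from a test. Read depth is unknown, so a missing peak is no evidence of a missing mark.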
